A study of Mus musculus with 6 samples.

Results

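Small nucleolar RNAs (snoRNAs) and the long non-coding transcripts named for carrying them were followed in N2A cells after knockdown of the long non-coding RNA Dali. Members were the genes whose symbol begins with Snora or Snord and a digit, the numbered Snhg genes and Gas5, each taken from a probe set annotated to that symbol alone, with the highest-mean probe set where a gene had several. This gave 57 of 19938 genes, made up of 31 box C/D snoRNAs (Snord), 20 box H/ACA snoRNAs (Snora) and 6 host transcripts (Gas5, Snhg5, Snhg11, Snhg15, Snhg16 and Snhg17).

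N2A is a mouse neuroblastoma line. Knockdown cells (n = 3 arrays) were transfected with 1.5 ug of a plasmid expressing a short hairpin RNA against Dali, and control cells (n = 3 arrays) with 1.5 ug of a non-targeting vector. Per the study's methods the hairpins are driven by the U6 promoter. The transfection was transient, total RNA was taken 2.5 days later with a column kit, and 200 ng was labelled for Affymetrix Mouse Gene 1.0 ST arrays.

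Most vertebrate snoRNAs lie inside introns and are cut out of the spliced and debranched intron of a host gene. Box C/D snoRNAs guide 2'-O-methylation, and box H/ACA snoRNAs guide pseudouridylation, chiefly of ribosomal RNA. Many hosts encode ribosomal proteins or translation factors, while others are spliced non-coding RNAs such as Gas5 and the Snhg genes, whose spliced transcripts are known substrates of nonsense-mediated decay. A snoRNA probe set cannot tell the mature snoRNA apart from unspliced host RNA, the recovery of such short RNAs by the column was not tested, and in these bulk samples fewer responding cells cannot be told apart from less RNA per cell.

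No array gave an identical column to another, correlations between arrays ranged from 0.990 to 0.997, and array medians lay between 7.86 and 7.93 on the log2 scale. Deviations from the group means were correlated between the knockdown and the control array of each replicate number (r = 0.14, 0.65 and 0.65 for numbers 1, 2 and 3, over annotated probe sets), so differences are also given within each number. The labels do not say which cultures or days the arrays came from, and p-values then measure only the spread between these samples. Of 14 markers of sympathetic neurons and neuroblastoma 13 were measured, with a median log2 value of 10.8 to 11.1 in knockdown arrays and 11.3 to 11.4 in control arrays. Medians for fibroblast, immune, glial, epithelial and endothelial markers lay between 6.50 and 8.06 over the arrays. Dali was not analysed here, so its depletion was not checked in these arrays.

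Most snoRNAs had lower mean values in knockdown cells, but by small amounts, and none passed the test. Over the 51 snoRNAs the median log2 difference, knockdown minus control, was -0.11, a 1.08-fold reduction, with single members between -0.52 and 0.26. The mean was lower for 41 of them (80.4%), whereas it was lower for 45.0% of all genes, whose median was 0.02. Box C/D snoRNAs had a median of -0.12 and 27 of 31 were lower. Box H/ACA snoRNAs had a median of -0.09 and 14 of 20 were lower. The 6 host transcripts had a median of 0.01 and 3 of them were lower.

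Calls required a limma p under 0.1 after Benjamini-Hochberg adjustment and at least a 1.3-fold change, and "rose" and "fell" are used only of called genes. A variance filter retained 37 of the 57 members, comprising 32 snoRNAs and 5 hosts, and removed 19 snoRNAs and Gas5. In limma without a replicate block 0 members were called, against 0.769% of all probe sets tested called lower and 0.367% called higher. At an unadjusted p under 0.05, 4 snoRNAs were lower and 0 higher, and 0 hosts differed (7.31% of all probe sets tested were lower). Among the 10196 genes with 1 symbol that were tested, 548 were higher at this threshold. With the replicate number as a block 2 snoRNAs fell, Snord87 and Snora44, beside 4.89% of all probe sets called lower and 2.77% called higher. Without the fold minimum the blocked limma fit took in 6 snoRNAs as lower (Snord15a, Snord96a, Snord49b and Snord73b in addition) and 1 as higher (Snord85), beside 12.8% lower and 9.34% higher of all probe sets.

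**Figure D1:**
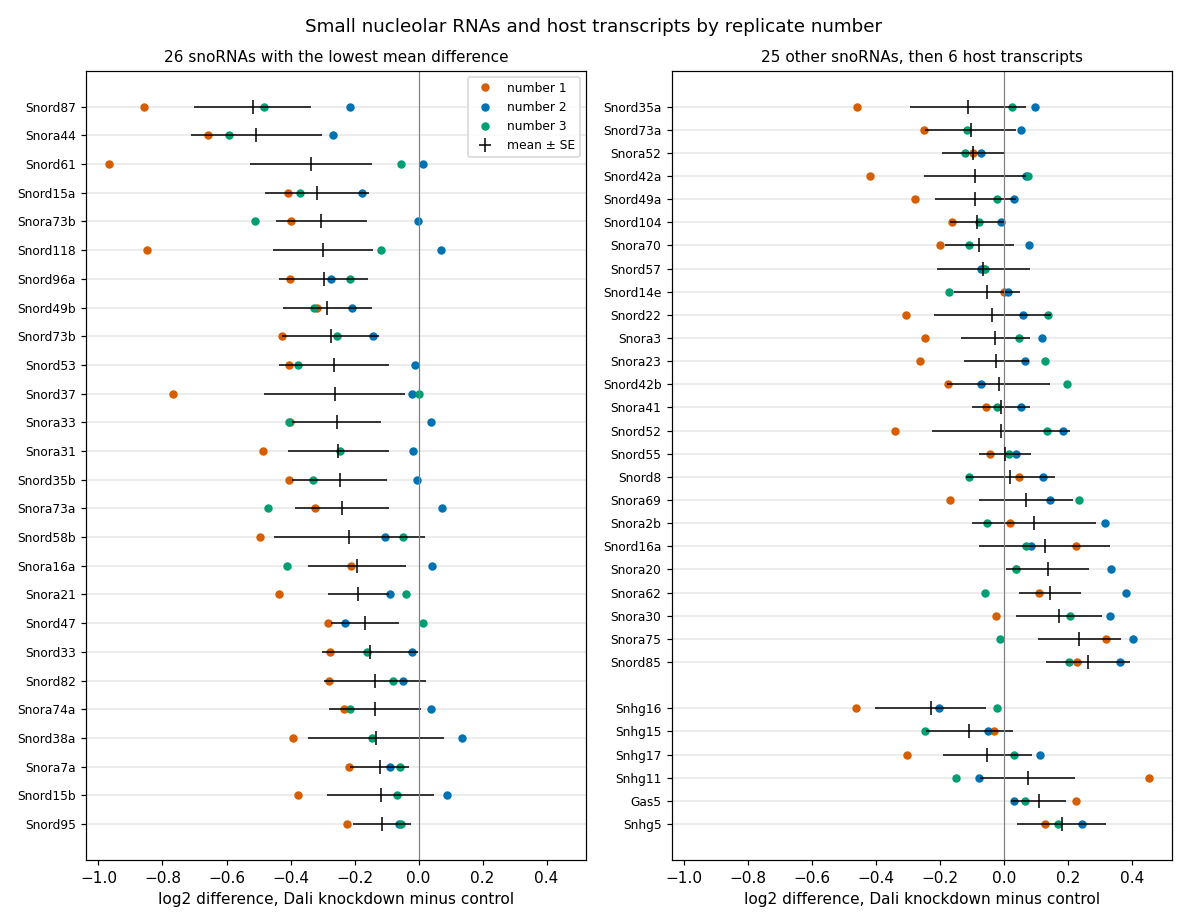
Log2 difference, Dali knockdown minus control, for 51 snoRNAs and 6 host transcripts. Coloured points are the differences within replicate numbers 1, 2 and 3, and black ticks with bars are the mean and its limma SE (3 arrays per group). The points of number 1 lie farthest left for most snoRNAs, with Snord61 at -0.97, whereas the hosts spread around 0.

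Snord87, a box C/D snoRNA encoded in Snhg6, had the lowest difference. Its log2 values were 8.13, 9.01 and 8.67 in knockdown arrays 1 to 3, against 8.98, 9.23 and 9.15 in control arrays 1 to 3. The groups overlapped only through knockdown array 2, which lay above control array 1. The difference was -0.52 (SE 0.18, 95% interval -0.90 to -0.13, limma adjusted p = 0.227), and with the replicate block the adjusted p was 0.033. Without knockdown array 2 limma called it in the unblocked fit as well (-0.72, adjusted p = 0.054). That fit called 334 of 11705 probe sets lower, against 90 with all arrays. Without knockdown array 1, however, Snord87 was at -0.28 (limma adjusted p = 0.776). Without both arrays numbered 1 the difference was -0.35.

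Snora44, a box H/ACA snoRNA encoded in Snhg12, had 10.45, 10.46 and 9.73 in knockdown arrays, against 11.11, 10.73 and 10.32 in control arrays. Each knockdown array lay below the control array of its number, but control array 3 was lower than knockdown arrays 1 and 2, so that the groups overlapped. The difference was -0.51 (SE 0.21, 95% interval -0.94 to -0.07, limma adjusted p = 0.303, or 0.019 with the replicate block). It was called without control array 3 (-0.71, limma adjusted p = 0.0996), in a fit that called 222 of 11705 probe sets lower against 90 with all arrays. However, Snora44 was at -0.26 without knockdown array 3 (limma adjusted p = 0.732) and at -0.31 without control array 1 (0.727). It was the only member called in the blocked fit without the arrays numbered 1 (-0.43, limma adjusted p = 0.076). Of all probe sets 4.21% were called lower and 3.7% higher in that fit of 4 arrays. The unblocked fit of the same arrays called 0.

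In 4 of the 51 snoRNAs (7.84%) every knockdown array lay below every control array. This share was near that of all genes (7.11%). Snora73b, one of the U17 snoRNAs, which act in pre-ribosomal RNA cleavage, had 10.87, 11.04 and 10.68 in knockdown arrays against 11.27, 11.05 and 11.20 in control arrays. Arrays numbered 2 differed by only -0.0026, and the mean difference was -0.30 (SE 0.14, limma adjusted p = 0.384). Snord96a, encoded in the ribosome-associated scaffold gene Rack1, had 8.10, 8.41 and 8.37 in knockdown arrays against 8.50, 8.68 and 8.59 in control arrays. Its differences within numbers 1 to 3 were -0.40, -0.27 and -0.21 (limma adjusted p = 0.387).

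Snord49b had the most even differences of these snoRNAs. Its values were 12.60, 12.71 and 12.43 in knockdown arrays and 12.92, 12.92 and 12.75 in control arrays, which put the difference at -0.32, -0.21 and -0.33 within the numbers (mean -0.28, SE 0.14, limma adjusted p = 0.404, or 0.055 with the block). Snora21, encoded in the ribosomal protein gene Rpl23, was the other snoRNA whose groups did not overlap, at -0.43, -0.09 and -0.04 within the numbers (limma adjusted p = 0.558 without the filter).

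Several of the largest mean differences came mainly from number 1. Snord61 had 5.83, 6.76 and 6.45 in knockdown arrays, against 6.79, 6.75 and 6.50 in control arrays. Only knockdown array 1 stood low, and the difference of -0.34 was -0.02 without the arrays numbered 1. Snord118, the U8 snoRNA that acts in processing of the large-subunit ribosomal RNAs and has its own promoter, had 6.77, 7.20 and 7.14 in knockdown arrays, against 7.62, 7.13 and 7.26 in control arrays. Here knockdown array 1 was low and control array 1 high, and the difference of -0.30 was likewise -0.02 without them. Snord37, in which only knockdown array 1 stood low, had differences of -0.77 in number 1, -0.02 in number 2 and 0.00 in number 3.

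Snord15a, encoded in Rps3, differed from these in being lower within every number (-0.41, -0.18 and -0.37). Its values were 8.76, 9.26 and 8.71 in knockdown arrays and 9.16, 9.43 and 9.08 in control arrays. The groups overlapped, and the mean difference of -0.32 (SE 0.16) had a limma adjusted p of 0.436, or 0.048 with the block.

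A few snoRNAs went the other way. Snord85, a box C/D snoRNA, had 7.88, 7.89 and 7.77 in knockdown arrays against 7.65, 7.53 and 7.57 in control arrays. It was the only snoRNA with every knockdown array above every control array (8.47% of all genes were so), with a difference of 0.26 (SE 0.13, limma adjusted p = 0.423, or 0.072 with the block). Snora75 had 8.20, 8.54 and 8.11 in knockdown arrays against 7.89, 8.14 and 8.12 in control arrays, a difference of 0.23 to which number 3 (-0.01) did not contribute. Snora30 (0.17) and Snora62 (0.14) were next, and each had 1 number in which the knockdown array was the lower (limma adjusted p = 0.655 and 0.705).

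**Figure D2:**
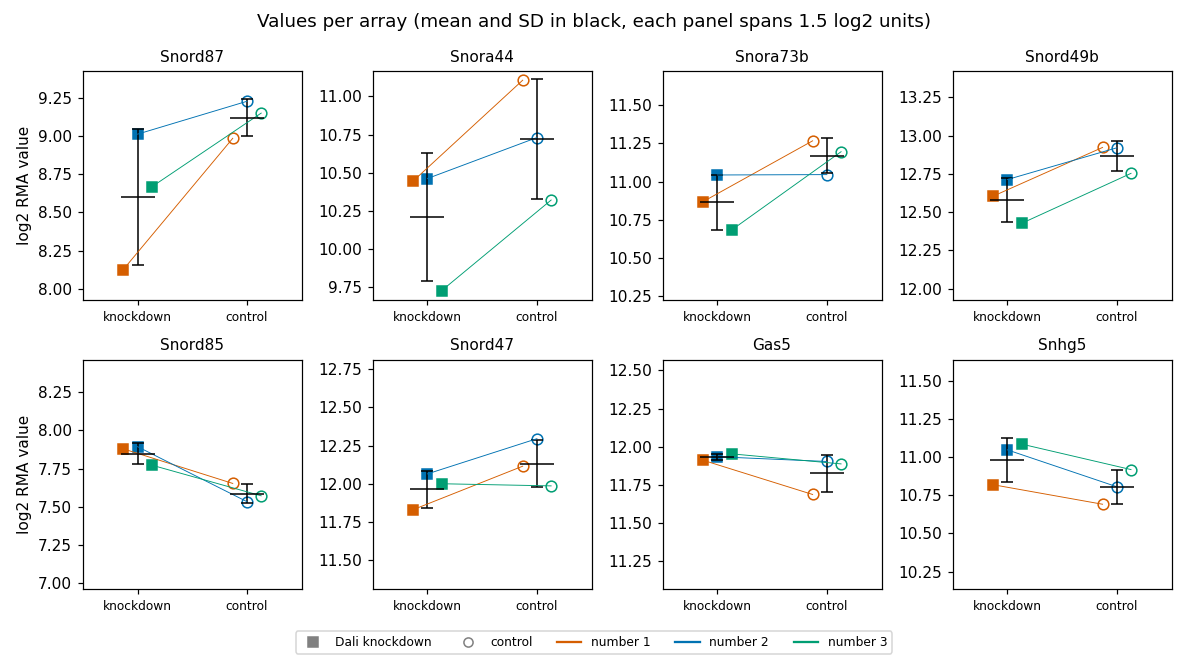
Log2 value in each array for 6 snoRNAs and the hosts Gas5 and Snhg5, with knockdown arrays (filled squares) left of control arrays (open circles). Thin lines join arrays with the same replicate number, and black bars give the mean and SD of 3 arrays. Snord49b was lower in knockdown within all 3 numbers and Snhg5 higher, while Snora73b hardly differed in number 2.

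The lower snoRNA values were concentrated in the arrays numbered 1. Within numbers 1, 2 and 3 the median snoRNA difference was -0.28, 0.04 and -0.06, while over all genes it was 0.05, -0.00 and -0.02. The knockdown array was lower for 44 of 51 snoRNAs in number 1 (86.3%), 22 in number 2 (43.1%) and 36 in number 3 (70.6%). Of all genes 40.7%, 51.0% and 55.3% were lower. A difference below -0.25 was found for 29, 2 and 11 snoRNAs (56.9%, 3.92% and 21.6%), beside 11.0%, 7.76% and 11.1% of all genes. The 19 snoRNAs that were lower in all 3 numbers made up 37.3% of the class, and 19.9% of all genes were lower in all 3. For the 3 that were higher in all 3 the share was 5.88%, against 21.5% of all genes.

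Box C/D snoRNAs had medians of -0.32, -0.01 and -0.07 within the numbers, and box H/ACA snoRNAs -0.21, 0.06 and -0.06. Whether the families differ was not tested. Without the arrays numbered 1 the median over all snoRNAs was -0.03 and 31 of 51 were lower (60.8%, against 54.7% of all genes). In the limma fit of those 4 arrays without a block, 0 of all 11705 probe sets were called, members included (0.0%). At an unadjusted p under 0.05 there were 229 probe sets lower and 250 higher in that fit, and 0 of its 32 snoRNAs and 2 hosts. The snoRNA differences in number 1 correlated with those in number 2 (r = 0.56) and number 3 (r = 0.40) across the 51 genes, and numbers 2 and 3 with each other (r = 0.48). Over all genes the corresponding r were 0.41, 0.41 and 0.58. Genes on the same array are not independent, and these are descriptions.

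By array, snoRNAs stood lowest on knockdown array 1. Their median deviation from each gene's mean over the 6 arrays was -0.19, 0.11 and -0.06 in knockdown arrays 1 to 3, against 0.06, 0.09 and -0.01 in control arrays 1 to 3. Knockdown array 1 lay below all others. Knockdown array 2 lay above every control array in this pooled median but not within the families, since control array 2 was higher for box C/D snoRNAs (0.12 in knockdown array 2, 0.19 in control array 2) and control array 1 for box H/ACA snoRNAs (0.05 in knockdown array 2, 0.08 in control array 1). The 13 markers of sympathetic neurons and neuroblastoma were lower to a like extent, with a median difference of -0.11 (-0.12, -0.06 and -0.11 within the numbers). Of these markers 10 were lower, 7 within all 3 numbers, and 4 had every knockdown array below every control array (7.11% of all genes). Marker lists of other cell types had medians of 0.07 to 0.30 in number 1. The part of either in the snoRNA differences was not tested.

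**Figure D3:**
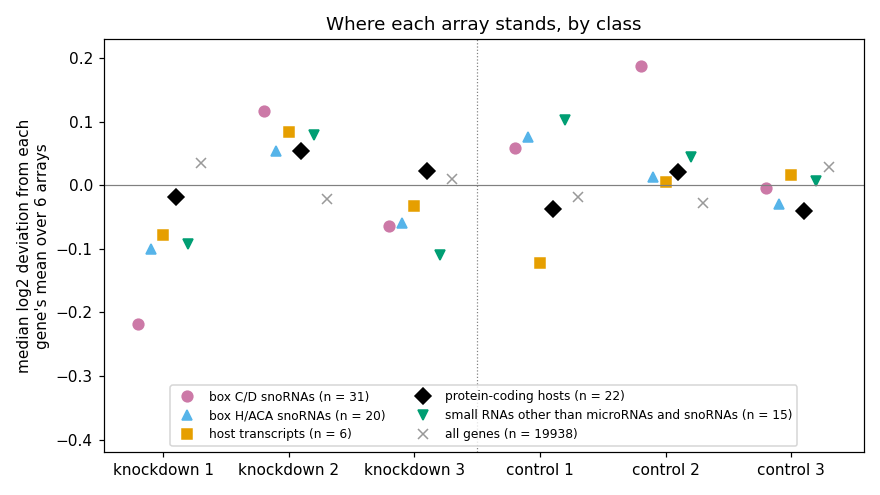
Median log2 deviation of each class from each gene's mean over 6 arrays, with the 3 knockdown arrays left of the 3 control arrays. Box C/D snoRNAs lie between -0.22 on knockdown array 1 and 0.19 on control array 2, with knockdown array 2 at 0.12, while all genes stay within 0.04 of 0.

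Other small RNAs did not behave alike. The 287 microRNA genes had a median difference of 0.01 and medians of 0.10, 0.02 and -0.09 within the numbers. In limma 0 of them were called (6 lower and 3 higher at an unadjusted p under 0.05), and with the block 4 fell, among them Mir380 (-0.59), and 2 rose, among them Mir15b (0.42), out of 152 tested and beside the 4.89% lower and 2.77% higher of all probe sets in that fit. The other 15 small RNAs had a median of -0.15, with -0.20, -0.02 and -0.15 within the numbers, and 12 of them were lower. This split was made after the values were seen. Rny1, a Y RNA transcribed by RNA polymerase III, had 6.85, 7.53 and 6.47 in knockdown arrays against 8.01, 7.69 and 6.91 in control arrays. Its difference of -0.59 (SE 0.25) had a limma adjusted p of 0.342, and it fell with the replicate block (adjusted p = 0.059). Terc, the telomerase RNA, which itself carries an H/ACA domain, had knockdown values of 12.41, 12.46 and 12.40 against control values of 12.61, 12.58 and 12.61, with no overlap (-0.17, limma adjusted p = 0.623 without the filter). Rmrp, the RNA of RNase MRP, was at -0.15 and Scarna17, a guide RNA of Cajal bodies, at -0.21, whereas Scarna8 was at 0.32 (limma adjusted p = 0.374), with knockdown above control in all 3 numbers. Of the 15, 0 were called by limma without the block, with 1 lower and 1 higher at an unadjusted p under 0.05. At that threshold 773 of all 10196 genes tested were lower and 548 higher.

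**Figure D4:**
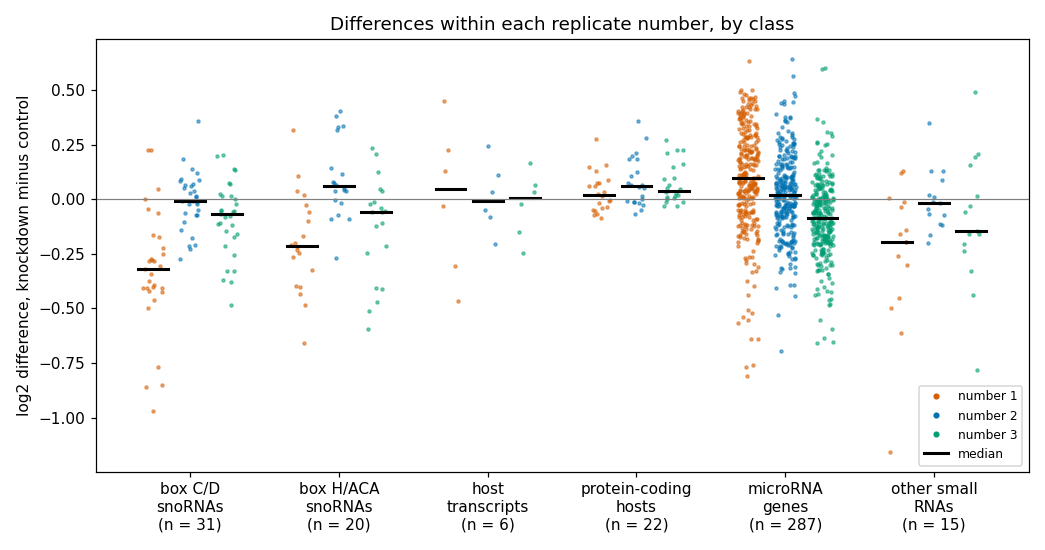
Log2 difference, knockdown minus control, of every gene of each class within replicate numbers 1, 2 and 3 (points), with the class median as a black bar. Box C/D and box H/ACA snoRNAs lie lowest in number 1 (medians -0.32 and -0.21), while the 287 microRNA genes lie above 0 there (0.10).

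The host transcripts showed no shared direction. Gas5, the growth arrest-specific transcript that carries several box C/D snoRNAs, had 11.91, 11.93 and 11.95 in knockdown arrays against 11.69, 11.90 and 11.89 in control arrays. The groups did not overlap, but arrays numbered 2 were 0.03 apart and the difference was 0.11 (SE 0.09, 95% interval -0.09 to 0.30, limma adjusted p = 0.767 without the filter). The other 3 Gas5 probe sets were at -0.05, -0.10 and -0.16, and in number 1, where the probe set used was at 0.22, they were at -0.20, -0.21 and -0.32. Probe sets of this gene therefore disagreed in sign, and the value for Gas5 depends on which is read.

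Snhg5 had 10.82, 11.05 and 11.08 in knockdown arrays against 10.69, 10.81 and 10.92 in control arrays, and was higher within each number (0.13, 0.24 and 0.17). The groups overlapped, and the difference of 0.18 (SE 0.14) was not called (limma adjusted p = 0.645, or 0.169 with the block). Snhg16 had 9.90, 10.47 and 10.07 in knockdown arrays against 10.37, 10.67 and 10.09 in control arrays, a difference of -0.23 (SE 0.17, limma adjusted p = 0.625) made up of -0.46, -0.20 and -0.02 within the numbers. It was at -0.39 without knockdown array 2 and -0.08 without control array 2. Snhg15 was at -0.11 (limma adjusted p = 0.837) and lower within all 3 numbers.

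Snhg17 and Snhg11 changed sign with the arrays numbered 1. Snhg17 was at -0.05 over all arrays and 0.07 without them. Snhg11, which is known mainly from neurons, had 7.88, 7.52 and 7.65 in knockdown arrays against 7.43, 7.60 and 7.80 in control arrays. Its difference was 0.45 in number 1 but -0.08 and -0.15 in numbers 2 and 3, so the mean of 0.07 became -0.12 without number 1 (limma adjusted p = 0.926 over all arrays).

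Several snoRNA hosts belong to the genes whose transcripts start within a run of pyrimidines, a feature known from genes of the translation apparatus. The bases around annotated starts are shown for hosts with a pyrimidine run anywhere in the window and, for contrast, for a host without one. A run in the window need not span the start. Each window has 10 bases before and 20 bases from the start, read 5' to 3' on the transcribed strand from the RefSeq annotation of GRCm38.p6. Capitals mark a C followed by at least 4 further C or T bases. The windows lie at chr1:161035156-161035185 (plus strand, the second of 2 annotated Gas5 starts), chr4:132308668-132308697 (plus, Snhg12, host of Snora44), chr11:116671650-116671679 (plus, Snhg16), chr9:88522878-88522907 (minus, Snhg5) and chr11:6528741-6528770 (minus, Snhg15). All cover the upstream flank and first exon bases of non-coding transcripts.
Gas5: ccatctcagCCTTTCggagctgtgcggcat
Snhg12: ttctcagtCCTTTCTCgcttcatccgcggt
Snhg16: gcgcaagcgcgatctcgtCCTTTCCgaggt
Snhg5: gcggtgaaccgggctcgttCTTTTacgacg
Snhg15: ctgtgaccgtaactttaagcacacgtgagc
In Gas5 and Snhg12 the run spans the annotated start, and in Snhg16 and Snhg5 it begins 9 and 10 bases into the transcript, counting the first transcribed base as 1. The other annotated Gas5 start held no run. On this strand, at least 1 start held a run anywhere in the window in 3 of the 6 host members. The same held for 16 of the 30 genes that contain a member snoRNA and are in the table (53.3%), compared with 39.6% of all 27025 genes there. These shares were not limited to runs that span the start. Among the 3 host members with a run were both the highest difference, of Snhg5 (0.18), and the lowest, of Snhg16 (-0.23). A match is a description of these letters and marks no site. The other 3 host members held no run in this window.

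Next, each snoRNA was set against the gene that contains it. Of the 51 snoRNAs 50 lie within 40 annotated genes, and for 27 of them the host, 1 of 23 genes, had a probe set of its own. The snoRNA difference was below that of its host in 22 of 27 pairs, with a median of snoRNA minus host of -0.12. Within numbers 1, 2 and 3 this median was -0.20, -0.01 and -0.09, and the snoRNA was the lower in 21, 15 and 23 pairs. Host differences ranged from -0.04 to 0.23 with 2 of 23 below 0, and limma called 0 of these hosts. Across the 27 pairs snoRNA and host differences had r = 0.05, in which pairs that share a host are not independent.

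No single pair could be called in this design. The per-array difference of snoRNA and host was compared by a two-sided exact permutation test without the pairing of numbers, and its smallest p for 3 against 3 arrays is 0.1. Of the pairs 3 reached it (Snora21 with Rpl23, Snora33 with Rps12 and Snord73b with Rps3a1), and the smallest value adjusted over 27 pairs was 0.6. The widest gap was that of Snord61 and Rbmx, an RNA-binding protein gene of the X chromosome, at -0.54, where Rbmx was at 0.21. Snord53 lay 0.49 below Wdr43, a ribosome biogenesis factor gene, with -0.26 for the snoRNA and 0.23 for the host (snoRNA minus host -0.49, exact permutation p = 0.3).

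Snord47 was the only member snoRNA whose host is itself a member. Its values were 11.83, 12.07 and 12.00 in knockdown arrays against 12.12, 12.30 and 11.99 in control arrays, a difference of -0.17 (limma adjusted p = 0.677 without the filter). Relative to Gas5 it was lower within each number (-0.51, -0.26 and -0.05), with a mean of -0.27 and an exact permutation p = 0.2. Relative to the other Gas5 probe sets the gap would be smaller, since those were at -0.05 to -0.16. In the other direction, Snord16a lay 0.12 above its host Rpl4 and was the only snoRNA above its host within all 3 numbers, whereas 14 of 27 were below their host within all 3. Ribosomal protein genes have many near-identical copies, and their probe set values are uncertain for that reason.

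**Figure D5:**
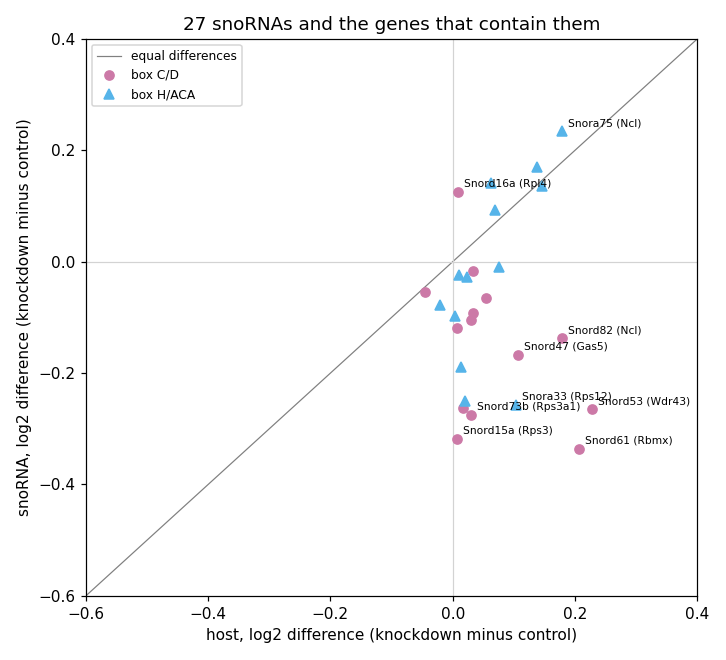
Log2 difference, knockdown minus control, of 27 snoRNAs (vertical axis) against that of the gene containing each (horizontal axis). The grey diagonal marks equal differences, and 22 points lie below it. Hosts span -0.04 to 0.23, and Snord61 in Rbmx and Snord53 in Wdr43 lie farthest below the line.

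A total of 10 hosts contained 2 member snoRNAs each. Both were lower in 8 hosts and the signs were opposite in 2, and these differences within hosts were not tested. In Ncl, which encodes the nucleolar protein nucleolin, Snora75 was at 0.23 and Snord82 at -0.14, with the host at 0.18. In Snhg12, Snora44 was at -0.51 and Snora16a at -0.19. Snord15a and Snord15b in Rps3 were at -0.32 and -0.12, and Snord49b and Snord49a in 2410006H16Rik at -0.28 and -0.09. The paralogues Snora73b and Snora73a, both in Snhg3, were closer together at -0.30 and -0.24, and their differences of -0.40 and -0.32 in number 1, -0.0026 and 0.07 in number 2, and -0.51 and -0.47 in number 3 ran in parallel, although near-identical sequences can share signal.

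Grouped by host, the 13 snoRNAs in long non-coding RNA hosts had a median of -0.17 (-0.31, 0.03 and -0.21 within the numbers) and 12 were lower. The 26 in genes of the translation apparatus had a median of -0.12 (-0.32, 0.02 and -0.06) and 22 were lower. The 11 in other protein-coding genes had a median of -0.02 (-0.02, 0.07 and -0.05) and 6 were lower. Both snoRNAs that fell with the block, Snord87 and Snora44, were in the long non-coding group, of which 9 were tested. Of all probe sets 4.89% were called lower in that fit. Whether the host groups differ was not tested, and snoRNAs that share a host are not independent. Apart from Gas5, the long non-coding hosts of member snoRNAs (among them Snhg1, Snhg3, Snhg4, Snhg6 and Snhg12) were not analysed here. The spliced RNA of those hosts was therefore not compared. Of the 23 hosts in the matched pairs 22 were protein-coding genes.

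Transcripts of genes whose proteins bind, assemble or process snoRNAs mostly had higher means, but without the block limma called 0 of them. Of the 6 listed box C/D core proteins 5 were measured and limma called 0 (1 higher at an unadjusted p under 0.05), with Nop58 at 0.32 (limma adjusted p = 0.383, or 0.035 with the block, below the fold minimum) and the methyltransferase fibrillarin (Fbl) at 0.18. Of the 4 H/ACA core proteins limma called 0 without the block (2 higher at an unadjusted p under 0.05), and 2 rose with it, where 2.77% of all probe sets were called higher. At the unadjusted threshold 548 of all 10196 genes tested were higher. Gar1 had 12.10, 11.69 and 12.03 in knockdown arrays against 11.37, 11.36 and 11.53 in control arrays, a difference of 0.52 (SE 0.15, limma adjusted p = 0.122, or 0.018 with the block). Dkc1, the pseudouridine synthase dyskerin, had 10.83, 10.49 and 10.90 against 10.41, 10.13 and 10.41 (0.42, SE 0.15, limma adjusted p = 0.234, or 0.018 with the block). For both, all knockdown arrays lay above all control arrays, as for 8.47% of all genes. Of the 4 H/ACA core genes 3 had a higher mean and 1 a lower mean (-0.03). Their medians within numbers 1, 2 and 3 were 0.19, 0.25 and 0.37, and 2 of the 4 were lower in number 1.

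Of 13 snoRNP assembly genes all 13 had a higher mean but limma called 0 (0 at an unadjusted p under 0.05), with Smn1, part of the survival of motor neuron complex, at 0.23 and Nufip1 at 0.22 (median 0.10). Of 11 genes of snoRNA processing 9 were higher and limma called 0 (0 at an unadjusted p under 0.05, median 0.10), with Dgcr8 at 0.29 and the intron-binding helicase Aqr at 0.21. Of 10 genes of nonsense-mediated decay, which degrades spliced host transcripts, 8 were higher and limma called 0 (1 higher at an unadjusted p under 0.05, median 0.11), with Upf2 at 0.29 and Smg8 at 0.22. Beside these, the median over all genes was 0.02 and 10962 of 19938 genes had a higher mean. At an unadjusted limma p under 0.05, 548 of 10196 genes tested were higher. Within numbers 1, 2 and 3 the medians were 0.02, 0.11 and 0.19 for assembly genes and 0.02, 0.09 and 0.11 for processing genes. For genes of nonsense-mediated decay they were 0.07, 0.22 and 0.10. In number 1 the knockdown array was lower for 4 of 13, 4 of 11 and 4 of 10 of these genes, beside 40.7% of all genes.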

How the data were processed

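RNA from 3 Dali knockdown and 3 control samples of N2A cells was measured on Affymetrix Mouse Gene 1.0 ST arrays. The authors background corrected and quantile normalised the arrays and summarised probe sets by RMA, and deposited log2 values that ran between 2.76 and 14.8. Neither tool versions nor the set of arrays normalised jointly is given in the sources used here. Quantile normalisation forces arrays to a common distribution, so a shift of all genes could not be seen.

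The platform annotation gave 1 symbol to 21789 of 35556 rows, several to 1621 and none to the 12146 that it does not list. All 57 members matched the RefSeq table of GRCm38.p6. Of them 8 had over 1 probe set, and 2 genes (Snora30 and Snord118) had 2 with identical values. Groups and numbers came from sample titles.

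Annotated probe sets with an interquartile range above the median were kept (11705 of 23410) and fitted with limma 3.58.1 (lmFit, eBayes, two-sided) in R 4.3.3. Members removed by this filter were read from the fit without it. The filter and fold minimum follow the study's methods. Numbers were treated as pairs because every same-number correlation of deviations exceeded 0.1. That of number 1 (0.141) was nevertheless weaker than that of knockdown array 2 with control array 1 (0.202), which differ in number. The block leaves 2 residual degrees of freedom in place of 4, and fewer still without the arrays numbered 1. The host of a snoRNA was the smallest RefSeq gene containing it, on either strand, because that table holds no strand. Box C and box D letters were not searched.

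Named were all hosts, snoRNAs called in either fit, the 8 lowest and 4 highest snoRNAs, Snord47, and up to 4 called members of each list or the 2 with the smallest p. Snora21, Snord37, Snord73b, Snord53, Snora33, Snord16a, Rny1, Terc, Rmrp, Scarna8, Scarna17, Rbmx and snoRNAs sharing a host were named after their values were seen. Members and lists were chosen with earlier results of these data known, so no test was run over a list. Of the symbols beginning with Mir, 4 host genes were left out of the microRNA class. The filter and the unblocked fit were tested on simulated arrays without pairing, and the blocked fit was not. Precision is limited by the number of arrays.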

Additional observations from a re-analysis of the deposited data

How the results depend on the processing

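Counts of called snoRNAs depended on how replicate numbers were treated. With the replicate block 2 snoRNAs were called lower instead of 0, and 896 probe sets in all instead of 133. With the block and without the arrays numbered 1 these were 1 and 926, and with the block and no fold minimum 6 lower and 1 higher snoRNA and 2586 probe sets (both settings were chosen after seeing the data). Leaving out arrays or numbers gave 0 to 1 snoRNA called lower and 0 to 508 probe sets in all, with 0 without both arrays numbered 1. All probe sets called numbered 41 with no variance filter, 0 with the filter set over all rows, 427 with an intensity trend and robust prior, and 32 at an adjusted p under 0.05. Centring each array on its median gave 57 higher and 71 lower calls in place of 43 and 90, and called 0 members.

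The median of snoRNAs ranged from -0.22 to -0.03 when arrays or numbers were left out, that of hosts from -0.033 to 0.043, the gap between them from -0.21 to 0.0015, and that of matched pairs from -0.19 to -0.043. The host median of 0.01 was -0.028 with the mean of all probe sets of a gene, and -0.054 for hosts above the median level, for hosts kept by the filter or without Snhg11. Snhg11 ranged from -0.12 to 0.19 and reversed to -0.026 without knockdown array 1, -0.016 without control array 1 and -0.12 without both (also with the block). Snhg17 ranged from -0.14 to 0.071 and reversed to 0.030 without control array 1 and 0.071 without both (also with the block). The cause was not tested. No other member named by the rule changed direction in the settings run for single members. Those settings kept the same probe set of each gene. For Gas5 the probe set used was at 0.11, whereas its others were at -0.05, -0.10 and -0.16. Of the members named afterwards, for which only the fit without the arrays numbered 1 was read, Snord15b was at 0.0096 and Snord49a at 0.0036 in it. The search for hosts on 1 strand alone was not run. The number of arrays and, for members of low level, signal near background limit what could be detected.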

Other observations

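A further 41 probe sets were annotated to several symbols of which at least 1 was a snoRNA or host, and no gene was named from them. Their median difference was -0.29, with -0.51, -0.16 and -0.21 within numbers 1 to 3, and 37 were lower. Of these, 24 carried 1 shared set of symbols and had nearly identical values (-0.34 to -0.29), so that they count as few independent measurements. The other 17 had a median of -0.11 (-0.26, -0.04 and -0.01 within the numbers). In limma 0 of the 41 were called, or 1 with the replicate block. In that blocked fit 4.89% of all probe sets were called lower and 2.77% higher.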
